A study of Gallus gallus with 6 samples.

Results

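The acyltransferases and lipins that build triacylglycerol are described here through 9 genes chosen by symbol: GPAM, GPAT3, GPAT4, AGPAT2, AGPAT3, AGPAT5, LPIN1, LPIN2 and DGAT2. All 9 symbols were present among the 15491 genes of the deposited table, and all 9 passed the filter on low counts that left 14743 genes to test. RNA was sequenced from the abdominal fat pad of Ross males, a strain of meat chicken, with 3 thermoneutral and 3 heat stress libraries. All birds ate the same diet in single cages under constant light at 50% humidity. Between 21 and 35 days of age the thermoneutral birds stayed at 22 °C and the heat-stressed birds at 32 °C. Whether a library holds RNA of a single bird is not stated, and the p-values below reflect variation among libraries, which may be technical.

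Triacylglycerol is assembled on a glycerol backbone in the membrane of the endoplasmic reticulum. Glycerol-3-phosphate acyltransferases (GPAM, GPAT3, GPAT4) add the first fatty acid, acylglycerol-phosphate acyltransferases (the AGPAT genes) add the next and give phosphatidate, lipins remove its phosphate to give diacylglycerol, and diacylglycerol acyltransferases (DGAT1, DGAT2) add the last fatty acid. Diacylglycerol and phosphatidate also feed the synthesis of phospholipids. In chickens most fatty acids are made in the liver, and abdominal fat stores those that lipoproteins deliver.

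Thermoneutral libraries held 30673333 to 35836632 counts and heat stress libraries 38336086 to 45163458, each of the latter being the deeper. The members had between 365 and 28979 counts per library. Libraries are compared in CPM, a gene's counts scaled to a library total of 1e+06, and genes in the authors' TPM, which is also scaled for gene length. Fat cell markers were abundant in both groups, with means of 338 (thermoneutral) and 364 (heat stress) CPM for ADIPOQ and of 7565 and 6238 CPM for FABP4. Of the 14 fat cell markers tested, described further below, 12 had a positive log2 fold change (median 0.56). With edgeR's quasi-likelihood test, 26 of 14743 genes (0.176%) had a false discovery rate (FDR) under 0.05, 17 higher (0.115%) and 9 lower (0.0610%). This split was 80 against 19 when libraries were scaled by their totals only, and 130 against 13 for limma on log2(TPM + 1). That count was 26 without thermoneutral 1, 35 without heat stress 1, 10 without thermoneutral 2, 6 without heat stress 2, and 3 without either thermoneutral 3 or heat stress 3.

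DGAT2, the last acyltransferase, averaged 6.62-fold higher in heat-stressed fat, GPAT3 averaged 2.55-fold higher, and LPIN1 averaged 2.79-fold lower. These 3 genes were the only members whose groups did not overlap in CPM, 2 with all heat stress libraries above and 1 with all below. Over all genes tested, 25.0% did not overlap between the groups, 12.6% above and 12.4% below. In edgeR 0 of the 9 members passed the FDR over all genes, and 4 had an unadjusted p under 0.05 (3 higher, 1 lower), where 18.8% of all genes did (9.56% higher, 9.20% lower). DESeq2, which called 8.81% of listed genes (4.88% higher, 3.92% lower), called 3 members at an adjusted p under 0.05, namely DGAT2, GPAT3 and LPIN1. The members' median log2 fold change was 0.04, beside -0.0045 over all genes tested, with 5 positive and 4 negative.

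**Figure D1:**
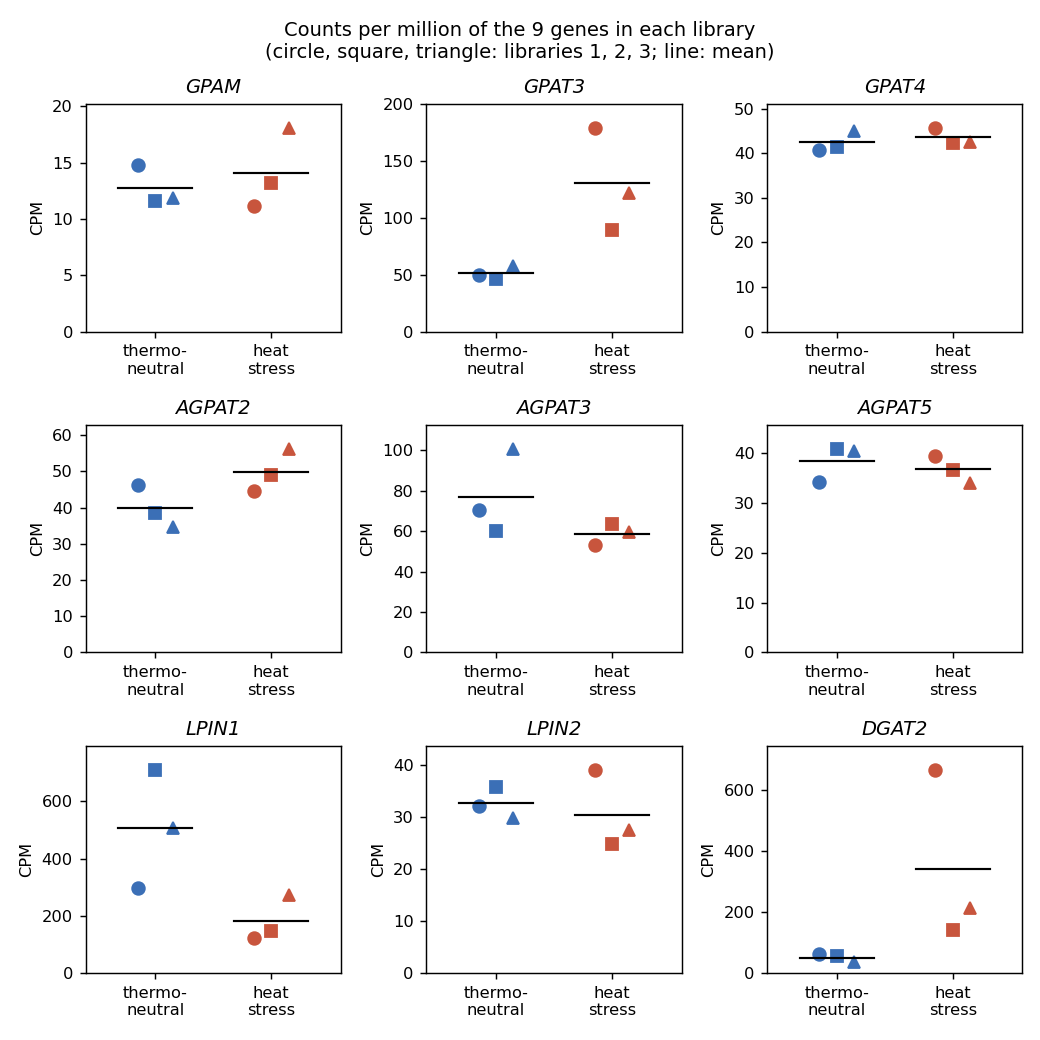
CPM (vertical axis, from 0) of each of the 9 genes in the 6 libraries, with libraries 1, 2 and 3 of a group as circle, square and triangle and the group mean as a line. Only GPAT3, LPIN1 and DGAT2 show groups that do not overlap, and heat stress 1 stands at 667 CPM for DGAT2.

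The first step rests on 3 genes. GPAT3 (gene ID 422610), an enzyme of the endoplasmic reticulum that is prominent in fat cells of mice, stood at 49.9, 45.9 and 57.5 CPM in thermoneutral 1, 2 and 3 and at 179, 89.7 and 122 CPM in heat stress 1, 2 and 3. All heat stress libraries lay above all thermoneutral ones, and heat stress 1 was the highest. Its log2 fold change was 1.35 ± 0.24 (SE, 95% interval 0.78 to 1.92, FDR = 0.0641 in edgeR's quasi-likelihood test, n = 3 each). DESeq2 gave an adjusted p of 9.24e-06 for the same gene. Leaving out 1 library moved the edgeR log2 value between 1.05, without heat stress 1, and 1.56, without heat stress 2.

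GPAT4 (gene ID 426788), the close paralog of GPAT3 in the same membrane, showed almost no spread. It had 40.7, 41.4 and 45.1 CPM in thermoneutral 1, 2 and 3 and 45.6, 42.4 and 42.6 CPM in heat stress 1, 2 and 3. The groups overlapped, and the 95% interval of the log2 fold change ran from -0.16 to 0.23. GPAM (gene ID 423895), the mitochondrial enzyme of this step, was the least abundant member. Its 14.7, 11.6 and 11.9 CPM (thermoneutral) and 11.1, 13.1 and 18.1 CPM (heat stress) overlapped as well (log2 fold change 0.15, 95% interval -0.34 to 0.63).

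The balance within the first step was read from ratios inside each library, which do not depend on how libraries are scaled. As GPAT4 differed little between the groups, the ratio and shares below largely restate the GPAT3 counts and are no independent results. The log2 ratio of GPAT3 to GPAT4 counts was 0.29, 0.15 and 0.35 in thermoneutral 1, 2 and 3 and 1.97, 1.08 and 1.52 in heat stress 1, 2 and 3. Every heat stress library exceeded every thermoneutral one, with means 0.26 ± 0.10 and 1.52 ± 0.45 (SD, n = 3 each). The difference of 1.26, a 2.40-fold change of the ratio, gave p = 0.1 in a two-sided exact permutation test, the smallest p that 3 libraries against 3 allow. Per length, GPAT3 made up 52.1% ± 1.79 of the summed TPM of the 3 genes in thermoneutral fat and 71.8% ± 6.42 in heat-stressed fat, while GPAT4 held 42.7% ± 1.72 and 24.9% ± 5.45 (SD, n = 3 each).

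GPAM held only 5.18% ± 0.783 and 3.37% ± 1.24 of that sum. Summed over the step, TPM was 77.1, 75.3 and 88.1 in thermoneutral 1, 2 and 3 and 199, 123 and 148 in heat stress 1, 2 and 3. This sum was higher in each heat stress library, and of the 3 genes GPAT3 was the one whose TPM did not overlap. AGPAT9L (gene ID 422609), described in the authors' table as an AGPAT9-like gene, lies next to GPAT3 in the GRCg7b annotation, and AGPAT9 is an older symbol of GPAT3. It had 148 to 261 counts per library and a log2 fold change of -0.28 ± 0.27 (FDR = 0.632 in edgeR). How reads were divided between these neighbours is not known, so both are uncertain to that extent.

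The next acyltransferases stayed close together. AGPAT2 (gene ID 772114), whose loss in humans causes a generalized lack of body fat, had 46.3, 38.5 and 34.7 CPM in thermoneutral 1, 2 and 3 and 44.7, 48.9 and 56.2 CPM in heat stress 1, 2 and 3. Heat stress 1 lay below thermoneutral 1, so the groups overlapped in CPM. In the authors' TPM they did not, at 26.4 to 34.3 and 35.8 to 44.6, where 21.3% of all genes tested lay wholly above and 6.95% wholly below in heat stress. The median log2 fold change over all genes was 0.069 on log2(TPM + 1). The log2 fold change was 0.33 ± 0.14 (SE), with FDR = 0.263 (unadjusted p = 0.0488) from edgeR.

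AGPAT3 (gene ID 418550), found in the endoplasmic reticulum and Golgi of mammalian cells, had 70.4, 60.2 and 101 CPM in thermoneutral 1, 2 and 3 and 53.0, 63.8 and 59.7 CPM in heat stress 1, 2 and 3. Thermoneutral 3 was high and the other 5 libraries lay close together. The log2 fold change of -0.39 ± 0.19 (SE, FDR = 0.323 in edgeR) became -0.15 without thermoneutral 3 and -0.55 without thermoneutral 2, the latter with an unadjusted p of 0.0198 and FDR = 0.243. AGPAT3 is overlapped by 2 other genes in the GRCg7b annotation. The library kit keeps strand, but how counting used it is not known, so overlapped genes are uncertain.

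AGPAT5 (gene ID 421898), a mitochondrial member of the family in mammals, had 34.2, 40.8 and 40.4 CPM against 39.5, 36.7 and 34.0 CPM, with an interval of -0.32 to 0.19 for the log2 fold change. Summed over the 3 genes, TPM was 78.2, 71.0 and 85.1 (thermoneutral) and 76.8, 86.2 and 85.7 (heat stress). The second step therefore overlapped between the groups as a whole, with group means of 78.1 ± 7.06 and 82.9 ± 5.31 TPM (SD, n = 3 each). Of this sum AGPAT2 took 38.7% ± 6.77 in thermoneutral and 48.5% ± 3.09 in heat-stressed fat, and AGPAT3 33.9% ± 7.95 and 25.1% ± 2.26.

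**Figure D2:**
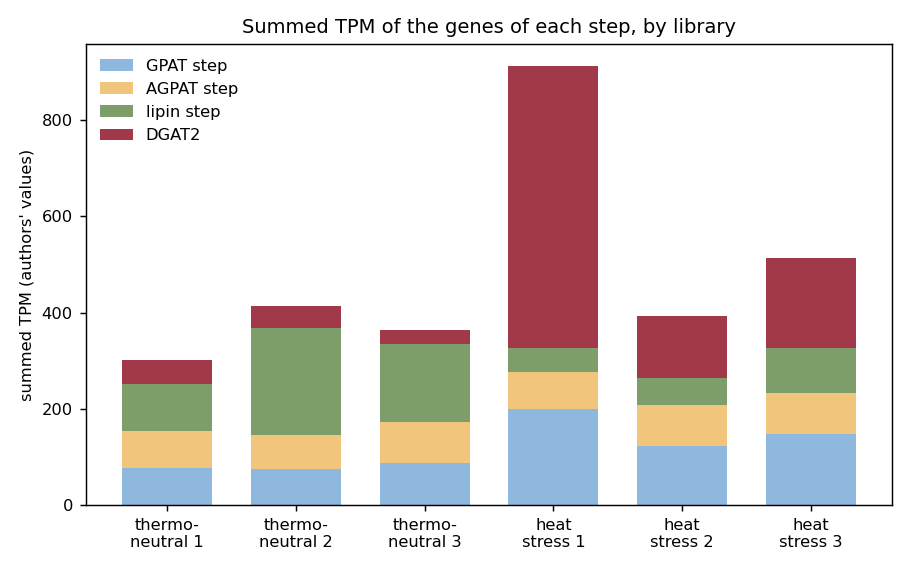
Summed TPM (authors' values, vertical axis from 0) of the genes of each step in the 6 libraries, stacked as GPAM with GPAT3 and GPAT4, the 3 AGPAT genes, both lipins, and DGAT2. The lipin block is smaller and the DGAT2 block larger in every heat stress library, and the 9 genes sum to 911 TPM in heat stress 1.

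The phosphatase step had its own pattern. LPIN1 (gene ID 421945), the main phosphatidate phosphatase of fat in mice and, in mouse liver, a coactivator of nuclear receptors induced by fasting, had 299, 709 and 508 CPM in thermoneutral 1, 2 and 3. In heat stress 1, 2 and 3 it had 123, 147 and 273 CPM. All heat stress libraries lay below all thermoneutral ones, but heat stress 3 and thermoneutral 1 were close, and thermoneutral 2 was the highest. The log2 fold change was -1.48 ± 0.39 (SE, 95% interval -2.41 to -0.55, FDR = 0.118 in edgeR's quasi-likelihood test), and DESeq2 gave an adjusted p of 0.0018. Leaving out 1 library gave log2 values from -1.90, without heat stress 3, to -1.16, without thermoneutral 2. LPIN1 is overlapped by 1 other gene in the GRCg7b annotation.

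LPIN2 (gene ID 421059), a second lipin, is abundant in mammalian liver. It had 32.1, 35.8 and 29.9 CPM in thermoneutral 1, 2 and 3 and 39.0, 24.9 and 27.4 CPM in heat stress 1, 2 and 3. Heat stress 1 held the highest and heat stress 2 the lowest value of all 6 libraries (log2 fold change -0.10, 95% interval -0.52 to 0.33). Without heat stress 1 the log2 fold change of LPIN2 was -0.32, with an unadjusted p of 0.0386 and FDR = 0.236 in edgeR, and without heat stress 2 it was 0.030. The log2 ratio of LPIN1 to LPIN2 counts was 3.22, 4.31 and 4.09 in thermoneutral 1, 2 and 3 and 1.66, 2.56 and 3.31 in heat stress 1, 2 and 3. Here heat stress 3 exceeded thermoneutral 1, so the groups overlapped, and the difference of -1.36 gave p = 0.2 in the exact permutation test (two-sided). LPIN1 still made up most of lipin TPM in every library, from 90.8% to 95.4% in thermoneutral fat and from 76.8% to 91.3% in heat-stressed fat.

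The last step is represented by DGAT2 alone. DGAT2 (gene ID 421309), an enzyme of the endoplasmic reticulum and lipid droplet surface without which newborn mice have almost no triacylglycerol, had 62.7, 56.0 and 36.3 CPM in thermoneutral 1, 2 and 3. It had 667, 143 and 215 CPM in heat stress 1, 2 and 3. Every heat stress library was above every thermoneutral library, and heat stress 1 was more than 3 times the next. Its log2 fold change was 2.73 ± 0.58 (SE, 95% interval 1.35 to 4.1, FDR = 0.0813 in edgeR's quasi-likelihood test), larger in size than that of 99.7% of genes tested, and DESeq2 gave an adjusted p of 0.00403. Without heat stress 1 the log2 value was 1.80, a 3.47-fold difference in place of 6.62-fold, with an edgeR FDR of 0.0642.

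The spread of DGAT2 was itself unequal. The SD of its log2 CPM was 0.42 over thermoneutral libraries and 1.15 over heat stress libraries, the latter wider than for 98.0% of genes tested. GPAT3 showed the same order of heat stress libraries (1, then 3, then 2) with SDs of 0.16 and 0.50, and LPIN1 had SDs of 0.63 and 0.60. Over all listed genes, too, the counts of heat stress 1 differed more from heat stress 2 and 3 than these did from each other. Chi-square per degree of freedom was 96.7 and 98.2 against 34.4, and 62.2 to 66.8 among thermoneutral libraries. A paralog listed as DGAT2-like (LOC112533497) had only 5 to 19 counts per library.

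**Figure D3:**
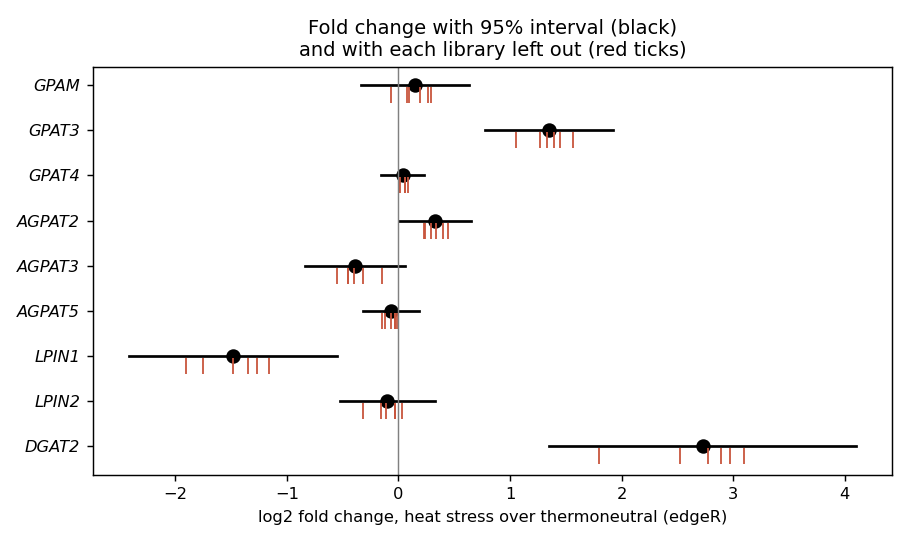
Log2 fold change of each gene, heat stress over thermoneutral, from edgeR (horizontal axis), with its 95% interval in black and the values with each library left out as red ticks. DGAT2 ranges from 1.80 to 3.10 and LPIN1 from -1.90 to -1.16 over these fits, and GPAM and LPIN2 have ticks on both sides of 0.

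Setting the last acyltransferase against the phosphatase before it gave the largest contrast between members. The log2 ratio of DGAT2 to LPIN1 counts was -2.26, -3.66 and -3.81 in thermoneutral 1, 2 and 3 and 2.43, -0.04 and -0.34 in heat stress 1, 2 and 3. The groups did not overlap, and they averaged -3.24 ± 0.86 and 0.69 ± 1.52 (SD, n = 3 each). The difference of 3.93 gave p = 0.1 in the two-sided exact permutation test, again the smallest p possible, and was 3.05 without heat stress 1. This pair was chosen with the fold changes of both genes known, so its ratio is no independent result.

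**Figure D4:**
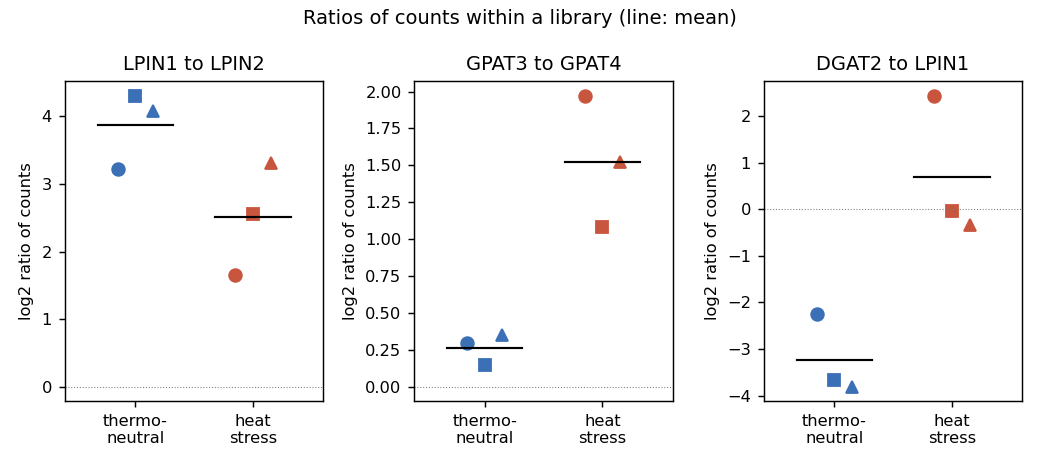
Log2 ratios of counts within each library for LPIN1 to LPIN2, GPAT3 to GPAT4 and DGAT2 to LPIN1, with the group mean as a line and libraries 1, 2 and 3 as circle, square and triangle. The GPAT3 to GPAT4 and DGAT2 to LPIN1 ratios do not overlap between the groups, and the LPIN1 to LPIN2 ratio does.

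Compared per length, the order of the genes differed between the groups. In thermoneutral fat LPIN1 led at 150 ± 61.8 TPM, ahead of DGAT2 (42.4 ± 10.9), GPAT3 (41.8 ± 5.01), GPAT4 (34.2 ± 2.26), AGPAT2 (30.0 ± 3.99), AGPAT3 (26.9 ± 8.67), AGPAT5 (21.3 ± 2.36), LPIN2 (9.17 ± 0.872) and GPAM (4.13 ± 0.466). Neighbours in this order had ranges that did not overlap at LPIN1 and DGAT2, GPAT3 and GPAT4, AGPAT5 and LPIN2, and LPIN2 and GPAM, and the other neighbours overlapped.

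In heat-stressed fat DGAT2 led at 300 ± 248 TPM, followed by GPAT3 (114 ± 38.7) and LPIN1 (57.4 ± 24.5). AGPAT2 (40.2 ± 4.39), GPAT4 (37.6 ± 1.52), AGPAT5 (21.7 ± 1.75), AGPAT3 (20.9 ± 3.04), LPIN2 (9.19 ± 2.24) and GPAM (5.0 ± 1.22) came after. Neighbours from DGAT2 down to GPAT4 overlapped in range, and so did AGPAT5 and AGPAT3. Genes farther apart in the order did not all overlap: the lowest DGAT2 value (129 TPM) lay above the highest LPIN1 value (85.2 TPM). DGAT2 took 16.8%, 11.2% and 8.27% of the members' summed TPM in thermoneutral 1, 2 and 3 and 64.1%, 32.8% and 36.4% in heat stress 1, 2 and 3. The lipins took 31.9%, 53.4% and 44.1% and then 5.56%, 14.2% and 18.2%, so neither share overlapped between the groups, and these shares are not independent of each other.

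Other genes of the pathway are described, here and in the next paragraphs, by lists chosen by symbol with earlier results of these data known. The counts within these lists are therefore no independent results. Beside them, 9.56% of all genes tested were higher and 9.20% lower at an unadjusted p under 0.05 in edgeR. DESeq2 called 4.88% of listed genes higher and 3.92% lower. Of 19 further genes of assembly, 10 were tested and 0 passed the FDR in edgeR, 2 higher and 1 lower at an unadjusted p under 0.05, with a median log2 fold change of -0.01. DESeq2 called 1 of them, TMEM68, described in mammals as another acyltransferase that can make triacylglycerol (30.5 ± 4.81 and 44.1 ± 2.37 CPM, edgeR FDR = 0.0995). LCLAT1, an acyltransferase of the AGPAT family, averaged 86.1 ± 8.08 and 107 ± 6.12 CPM without overlap. PLPP1, a phosphatase of phosphatidate outside the lipin family, averaged 679 ± 122 and 434 ± 151 CPM, and its 3 heat stress libraries also lay below the 3 thermoneutral ones (log2 fold change -0.65 ± 0.27, FDR = 0.259 in edgeR).

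The related PLPP2 and PLPP3 had log2 fold changes of -0.06 ± 0.11 and 0.04 ± 0.23. CNEP1R1, part of the phosphatase complex that acts on lipins, had 36.3 CPM in both groups (SD 2.81 and 3.22). AGPAT1, DGAT1 and LPIN3 were not found under those symbols and are not analysed here. LOC112533499, listed as a monoacylglycerol acyltransferase 2-like gene and named after its values were seen, had 245 to 440 TPM in thermoneutral and 344 to 393 TPM in heat-stressed fat. Its groups overlapped (log2 fold change -0.12 ± 0.22, FDR = 0.807 in edgeR).

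A list of genes around phospholipid synthesis, with diacylglycerol kinases and lysophospholipid acyltransferases among them, had 14 positive and 13 negative log2 fold changes. Of 27 tested, 0 passed the FDR in edgeR, and 6 were higher and 2 lower at an unadjusted p under 0.05. At that p 9.56% of all genes tested were higher and 9.20% lower. In CPM 8 lay wholly above and 4 wholly below in heat stress, where 12.6% and 12.4% of all genes tested did. DESeq2 called 1 in each direction, and the median log2 fold change was 0.03. DGKZ, a kinase that turns diacylglycerol back into phosphatidate, averaged 117 ± 19.0 and 182 ± 24.4 CPM (log2 fold change 0.63 ± 0.15, FDR = 0.0946 in edgeR). The other diacylglycerol kinases tested went both ways. Log2 fold changes were positive for DGKG (0.29) and DGKQ (0.21). They were negative for DGKA (-0.05), DGKB (-0.33), DGKD (-0.36), DGKE (-0.07) and DGKH (-0.56). MBOAT1, a lysophospholipid acyltransferase, averaged 55.2 ± 1.5 and 36.6 ± 6.12 CPM (-0.59 ± 0.13). PCYT2, of phosphatidylethanolamine synthesis, averaged 62.0 ± 5.20 and 75.4 ± 3.22 CPM.

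Genes that supply acyl-CoA and glycerol phosphate had 0 of 14 past the FDR in edgeR, 3 higher and 1 lower at an unadjusted p under 0.05, and 3 higher and 1 lower in DESeq2, with a median of 0.09. ACSL1, which activates fatty acids for the acyltransferases, averaged 869 ± 306 and 2185 ± 837 CPM (log2 fold change 1.33 ± 0.36, FDR = 0.121 in edgeR, DESeq2 adjusted p = 0.00232). Its groups nearly met, at 1209 CPM in thermoneutral 1 and 1265 CPM in heat stress 1, here the lowest heat stress library. Glycerol kinase GK averaged 127 ± 27.4 and 188 ± 4.90 CPM. PCK1, of glyceroneogenesis, averaged 0.290 ± 0.090 and 1.13 ± 0.352 CPM (FDR = 0.0801 in edgeR). Its values were low, 0.19 to 0.37 CPM in thermoneutral and 0.84 to 1.52 CPM in heat-stressed fat, where 1 CPM was 30.0 to 46.0 counts. The thermoneutral values were the ones near the floor. ACSBG1, another acyl-CoA synthetase and the 1 gene counted as lower, averaged 2.76 ± 0.578 and 1.1 ± 0.500 CPM without overlap (log2 fold change -1.30 ± 0.42, DESeq2 adjusted p = 0.0463) and was named after its values were seen. GPD1 was not found by symbol, and GPD1L differed little (61.0 ± 4.14 and 63.8 ± 9.08 CPM).

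Among 21 regulators of lipid synthesis tested, 8 were higher and 0 lower at an unadjusted p under 0.05. Over all genes tested, 9.56% were higher and 9.20% lower at that p. Of the regulators, 4 were higher in DESeq2 and 0 passed the FDR in edgeR. This list, too, was chosen with earlier results of these data known. The median log2 fold change was 0.23, and 17 of the values were positive. INSIG1, which holds back sterol-regulated transcription factors and is itself their target, averaged 60.2 ± 8.84 and 139 ± 26.2 CPM (log2 fold change 1.2 ± 0.17, FDR = 0.0518 in edgeR). SREBF1, the transcription factor that drives lipogenic genes, averaged 25.9 ± 4.95 and 52.0 ± 7.99 CPM, and KLF15 averaged 55.7 ± 3.32 and 96.9 ± 26.0 CPM.

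PPARG, the main transcription factor of fat cells, had 254, 194 and 235 CPM in thermoneutral 1, 2 and 3 and 514, 255 and 260 CPM in heat stress 1, 2 and 3. Heat stress 1 was again the highest library, as for DGAT2 and GPAT3, and heat stress 2 barely exceeded thermoneutral 1. The log2 fold change of PPARG was 0.59 ± 0.28 (SE, FDR = 0.318 in edgeR). CEBPA averaged 109 ± 44.4 and 233 ± 83.8 CPM (log2 fold change 1.10 ± 0.37, FDR = 0.183 in edgeR). PPARGC1A, the coactivator that LPIN1 works with in mouse liver, averaged 1.63 ± 0.410 and 1.36 ± 0.792 CPM, with overlapping groups.

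**Figure D5:**
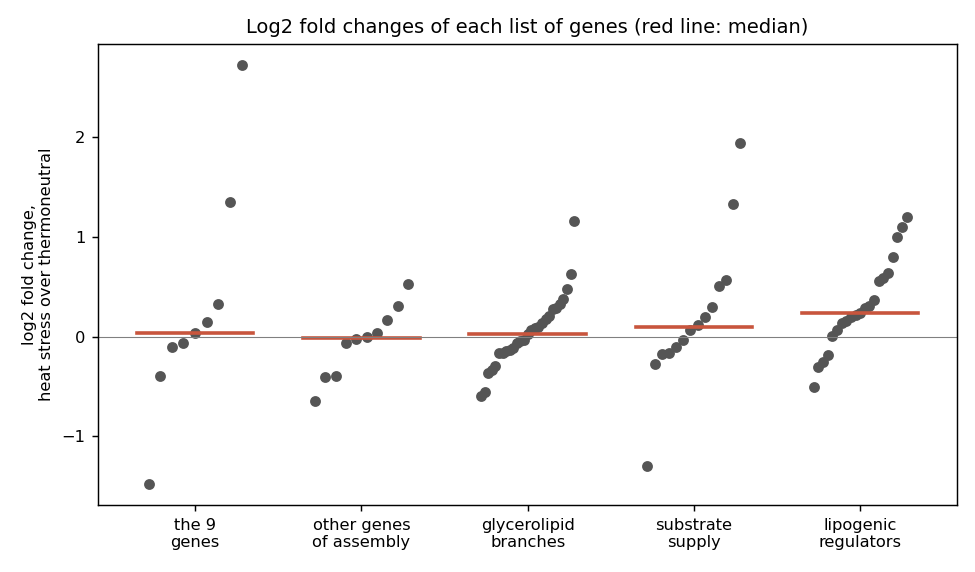
Log2 fold changes, heat stress over thermoneutral (vertical axis), of the 9 genes and of 4 lists of related genes, each point a gene in order of its value and the red line the median. The medians are 0.04, -0.01, 0.03, 0.09 and 0.23 from left to right, and DGAT2 is the highest and LPIN1 the lowest point of all lists shown.

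The authors' deposited table gives signed fold changes of 6.61 for DGAT2, 2.55 for GPAT3 and -2.79 for LPIN1, with adjusted p-values of 0.00403, 9.24e-06 and 0.0018. In the authors' deposited table the other 6 members had adjusted p-values from 0.23 for AGPAT2 to 0.889 for GPAT4. The authors' deposited table of ontology terms lists 6 genes under triglyceride biosynthesis, a term of 17 genes, 5 higher and 1 lower. They are DGAT2, GPAT3, PCK1, PNPLA3, SREBF1 and LPIN1, of which 3 are members here. The gene list behind these terms is named for fold change and raw p, not for the adjusted p-values above. It comes from the same counts, so the term is no independent result.

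By root mean square difference of log2 CPM over the 6 libraries, each taken relative to the thermoneutral mean, the genes most like DGAT2 among 11641 genes were SMOC1 (0.23), a matrix protein, ACKR4 (0.27), an atypical chemokine receptor, NGEF (0.29), MEGF11 (0.34) and PNPLA3 (0.38), a lipid droplet lipase and acyltransferase. ACKR4 had 165, 96.3 and 77.6 CPM in thermoneutral 1, 2 and 3 and 1226, 323 and 342 CPM in heat stress 1, 2 and 3, and PNPLA3 had 584, 350 and 429 and then 3781, 1195 and 1856 CPM. Heat stress 1 was the highest library for each of the 5 genes, which follows from choosing them by likeness to DGAT2 in every library. Genes known only by a LOC placeholder symbol were not searched.

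The genes most like GPAT3 were IGFALS (0.14), NTNG2 (0.14), C14orf180 (0.18), PRELP (0.18) and TSPAN18 (0.20). Those most like LPIN1 were farther off, EDARADD (0.36), NDEL1 (0.37), MYBL1 (0.38), SOX6 (0.38) and TMEM37 (0.38). Among members, GPAT3 and DGAT2 were 0.95 apart, GPAT3 and LPIN1 2.07, and DGAT2 and LPIN1 2.95. GPAT3 was the member nearest to DGAT2, but GPAT3 itself was nearer to AGPAT2 (0.79), GPAT4 (0.93) and GPAM (0.94). The member nearest to LPIN1 was AGPAT3 (0.97).

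Markers of the cells that abdominal fat can hold were also measured, and in bulk tissue fewer cells of a type and less RNA per cell cannot be told apart. The marker lists were also chosen with earlier results of these data known. Summed over 14 of 15 listed adipocyte markers, CPM ran from 23354 to 31255 in thermoneutral and from 27447 to 31475 in heat-stressed fat. A score of these markers (mean log2 difference of CPM from the thermoneutral mean) spanned -0.43 to 0.34 in the thermoneutral and 0.48 to 0.75 in the heat stress group. Of the 14, 12 had a positive log2 fold change (median 0.56), 4 were higher and 1 lower at an unadjusted p under 0.05, and 1 passed the FDR in edgeR. PPARG and CEBPA are among both these markers and the regulators. Thermoneutral 2, the highest library for LPIN1, had the lowest adipocyte score. Among thermoneutral libraries it also had the lowest endothelial score and the highest T cell, B cell, erythrocyte, smooth muscle, skeletal muscle and liver scores. T cell markers (13 of 13) summed to 202 to 217 CPM and 128 to 147 CPM, with 0 higher and 9 lower at that p. Stromal markers (12 of 12) summed to 51911 to 63676 CPM and 36681 to 44589 CPM, with 1 higher and 9 lower. Over all genes tested, 9.56% were higher and 9.20% lower at that p.

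Endothelial markers (14 of 15) summed to 2923 to 3831 CPM in thermoneutral and 3535 to 4323 CPM in heat-stressed fat, sums that overlapped. Their score did not overlap (-0.16 to 0.19 and 0.38 to 0.63), and 9 were higher and 0 lower at an unadjusted p under 0.05. Macrophage markers (13 of 13) summed to 4813 to 5184 and 2884 to 5008 CPM, with scores of -0.06 to 0.08 and -0.73 to -0.22, 12 negative log2 fold changes, and 0 higher and 4 lower. B cell markers (7 of 9) summed to 123 to 219 CPM and 30.0 to 126 CPM, with scores of -0.48 to 0.91 and -2.36 to -1.22, a median log2 fold change of -2.14, and 0 higher and 5 lower. Erythrocyte markers (6 of 14 listed, with HBA1 at a mean of 231 and 125 CPM) summed to 393 to 875 and 225 to 373 CPM. All 6 had a negative log2 fold change (median -0.91), with 0 higher and 3 lower at that p. Smooth muscle markers (10 of 10) summed to 1235 to 1615 and 1201 to 1635 CPM, sums that overlapped. Of these, 8 had a negative log2 fold change (median -0.47), with 1 higher and 4 lower at that p. Skeletal muscle markers (4 of 11, CKM not among them) summed to 34.4 to 61.2 and 14.5 to 25.8 CPM, with 1 higher and 2 lower. ACTA1 made up most of these sums, with means of 40.6 and 17.1 CPM. Of the 4, 2 had a positive and 2 a negative log2 fold change, and the scores overlapped (-0.15 to 0.12 and -0.15 to -0.08). The part of these cells in the values of LPIN1, GPAT3 and DGAT2 was not tested.

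Markers of liver were measured too. Only 4 of 10 were listed (APOB was not), and they summed to 3.97, 16.0 and 2.56 CPM in thermoneutral 1, 2 and 3 and 3.63, 214 and 83.2 CPM in heat stress 1, 2 and 3. ALB, the main liver protein of plasma, averaged 5.70 CPM in thermoneutral and 87.7 CPM in heat-stressed fat. DGAT2 had 667, 143 and 215 CPM in heat stress 1, 2 and 3, and the part of liver RNA in these values was not tested.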

How the data were processed

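The submitters' processing notes name StringTie 2.1.3b, HISAT2 2.1.0, Bowtie2 2.3.4.1 and the build GRCg6a. What each tool did, and how strand was treated in counting, is not given in the sources used here. The authors deposited 1 table of all genes with read counts that are not normalized, and with TPM and FPKM values, per the file headers. Per the file headers the authors' table also holds a signed fold score (a ratio, negative when lower) with raw and adjusted p-values, and another holds adjusted p-values per ontology term. Every listed gene has at least 1 count in each library. A further 36 columns of values per library were not used.

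Counts were tested with edgeR 4.0.16 in R 4.3.3 (quasi-likelihood F test, TMM scaling, filterByExpr, group as the only term, Benjamini-Hochberg adjustment over all tested genes, FDR 0.05). CPM uses TMM-scaled totals, and 1 CPM was 30.0 to 46.0 counts. Standard errors are taken from the log2 fold change and the F statistic, and 95% intervals from these with the test's degrees of freedom. DESeq2 1.42.0 on all listed genes and limma 3.58.1 on log2(TPM + 1), log2(TPM + 0.1) and log2(FPKM + 1), with no filter, are alternatives. DESeq2 gave 1364 calls, as in the authors' deposited table. On simulated counts for 14743 genes with 200 changed, edgeR recovered 50.3% of changes of 2-fold and 84.3% of changes of 4-fold, with 6.51% of its calls false. DESeq2 recovered 66.3% and 90.7%, with 25.5% false. These are means of 3 runs, with counts drawn at the dispersions that edgeR fitted, so the tools were not set on equal terms. The share of false calls depends on how many genes change, so it does not carry over to the calls reported here. Ratios of counts within libraries were tested by exact permutation over libraries (scipy 1.17.1). With 3 libraries against 3 the smallest p is 0.1.

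No 2 libraries of a group were copies (chi-square per degree of freedom 34.4 to 98.2). The value of 34.4 was that of heat stress 2 and 3, and heat stress 1 gave 96.7 and 98.2 against them. Groups came from the titles. The members, the 4 pathway and 10 cell marker lists and the rule for named genes were chosen with earlier results of these data known. The rule named all members, from each pathway list up to 4 genes under the FDR threshold, or, where too few were, the 3 with the lowest p, 10 fixed genes, the first 2 markers of each cell list and the 5 genes most like GPAT3, LPIN1 and DGAT2. PLPP2, PLPP3, CNEP1R1, GPD1L, ACSBG1, AGPAT9L, LOC112533497 and LOC112533499 were named outside this rule. The search for like genes required a mean of at least 1 CPM and a symbol that is not a LOC placeholder. Symbols and neighbouring genes were looked up in a gene table of another build (GRCg7b), so no coordinates are given.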

Additional observations from a re-analysis of the deposited data

How the results depend on the processing

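The count of genes called over all genes moved most. Against 26 in edgeR with TMM, it was 99 with library totals, 133 with 1 CPM required in all 6 libraries, 95 with the replicate number as a block, 1364 in DESeq2, 143 on log2(TPM + 1), 218 on log2(TPM + 0.1) and 10 on log2(FPKM + 1), and 3 to 35 with 1 library left out. Of the 9 members, edgeR called 0 in each of these fits. DESeq2 called 3 (log2 fold changes 2.72 for DGAT2, 1.35 for GPAT3 and -1.48 for LPIN1), and limma on log2(TPM + 0.1) called 1, GPAT3 (FDR = 0.0495). The cause was not tested. The members at an unadjusted p under 0.05 numbered 3 to 5 in all alternatives, against 4. In the main fit 18.8% of all genes tested had such a p. That share was not measured for the alternatives, so the member counts cannot be set beside it. Leaving out 1 library gave FDR values of 0.0602 to 0.182 for GPAT3, 0.0642 to 0.224 for DGAT2 and 0.0995 to 0.255 for LPIN1.

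Of 135 values of the 9 members under 15 alternatives, 4 changed sign, each of a gene near 0. AGPAT5 turned to 0.032 on log2(TPM + 1) and 0.033 on log2(TPM + 0.1). With 1 library left out, LPIN2 ran from -0.317 to 0.0295 (positive without heat stress 2) and GPAM from -0.0688 to 0.293 (negative without heat stress 3). The cause was not tested. With 1 library left out the log2 ratio differences ran from 1.04 to 1.48 for GPAT3 to GPAT4, from -1.76 to -0.93 for LPIN1 to LPIN2 and from 3.05 to 4.44 for DGAT2 to LPIN1.

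The titles and library names state no pairing of the libraries. The replicate numbers come from the titles, and the library names carry other numbers, which differ between same-numbered libraries. From the counts of 3 libraries per group a pairing could not be decided. Deviations of same-numbered libraries correlated at 0.08, 0.25 and 0.04 across genes, and those of differently numbered libraries at -0.19 to 0.11. Not every library correlated best with its own number. With the block the members called stayed at 0 in edgeR, and 3 had an unadjusted p under 0.05, the share over all genes not being measured. The 3 log2 ratio differences were the same by construction (1.26, -1.36 and 3.93, smallest sign-flip p 0.25).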
